A study of Homo sapiens with 6 samples.

Results

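Keratins are the intermediate filament proteins of epithelial cells. A set of 8 was chosen by gene symbol, as the keratins of simple epithelium and those found beside them in carcinoma lines: KRT7, KRT8 and KRT80 of type II, and KRT18, KRT19, KRT20, KRT10 and KRT17 of type I. They are 8 of the 51103 genes in the count tables, and all 8 symbols were found. RNA came from 2 human gastric cancer lines: HGC-27, which was set up from an undifferentiated tumour, and AGS, which was set up from an adenocarcinoma. Each line gave 1 library labelled negative control and 2 libraries labelled NINJ1, from cells given a lentivirus for overexpression of ninjurin-1, a cell-surface protein of adhesion and membrane rupture, and all were harvested at 48 hours from 6-well plates in the same serum-containing medium. What the control virus carried and the promoter that drove NINJ1 are not given in the sources used here. Whether the libraries of a group were grown apart is not stated in the labels. Each p-value therefore reflects only the spread within the pairs of libraries labelled NINJ1, taken over both lines, which may be technical.

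A keratin filament is an obligate heteropolymer, built from dimers of 1 type I and 1 type II chain, so simple epithelia make partners together. KRT8 and KRT18 are the first pair of the embryo and the base of every simple epithelium, including the gastric glands. KRT7 and KRT19 are ductal, KRT20 marks intestinal and foveolar epithelium, KRT17 is a chain of basal, appendage and wounded epithelium, KRT10 is the type I chain of differentiating epidermis, and KRT80 is a type II chain found in many epithelia.

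NINJ1 itself had 71 counts in the HGC-27 control and 264 and 300 in the HGC-27 libraries labelled NINJ1, but 402 in the AGS control, then 261 and 221 in the AGS libraries labelled NINJ1. In AGS the targeted gene thus lay below its control (log2 change -0.68 with a standard error, SE, of 0.19, adjusted p = 0.0148), which goes against the label, and in HGC-27 above it (1.89, SE 0.24, adjusted p = 3.22e-08, edgeR quasi-likelihood test with Benjamini-Hochberg adjustment over 17617 genes). Titles and file names put the 2 replicate 2 libraries labelled NINJ1 in opposite lines. Lines are given here as in the file names, and each comparison is repeated with the titles and with the 4 undisputed libraries, those on which both sources give the same line. The HGC-27 control stood apart: genes over 65% GC lay at a median of -2.79 on the log2 scale from their mean over libraries, against 0.29 to 0.89 in the other 5, and genes over 60% GC held 2.31% of its counts against 9.25 to 11.3%. The NINJ1 rise in HGC-27 is measured against that control alone, and NINJ1 has 57.2% GC in its longest transcript. With the GC correction described below, the HGC-27 log2 change of KRT80 (56.8% GC) went from 1.37 to 0.041. That of KRT17 (58.1% GC) went from 0.53 to -1.04. No NINJ1 value with that correction is given, so how much of its rise remains was not tested. Library totals ran from 12619684 to 18175697 counts.

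Of the 10 epithelial markers, EPCAM, a surface protein of epithelia, had 2.57 to 7.93 FPKM (counts scaled by gene length and library total), while CDH1, which encodes E-cadherin, had at most 0.454 and RAB25 was listed at 0 in 5 of 6 libraries. The summed level of that list was 13.9 FPKM in the HGC-27 control, 28.4 and 31.3 in the HGC-27 libraries labelled NINJ1, 41.6 in the AGS control, then 29.0 and 25.5 in the AGS libraries labelled NINJ1. CLDN4 ran from 0.725 to 10.4 FPKM, CLDN7 from 0.287 to 12.9 and ESRP2 from 3.44 to 12.5, each lowest in the HGC-27 control. EPCAM and CDH1 were highest in that control, opposite to the sum. The 7 stratified squamous markers summed to at most 0.705 FPKM. The 7 blood cell markers summed to at most 2.51 FPKM, nearly all of it HBA1 in AGS (1.63 to 2.47 FPKM), with PTPRC at or near 0 and LYZ at 0. The 10 fibroblast and endothelial markers summed to 1.56 FPKM in the HGC-27 control, 5.56 and 5.92 in its libraries labelled NINJ1, 11.4 in the AGS control, then 3.98 and 3.36 in the AGS libraries labelled NINJ1, led by COL1A1. Their part in the keratin values was not tested. In bulk RNA, fewer cells of a kind and less RNA per cell cannot be told apart.

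Keratin genes sit in 2 clusters, type II on chromosome 12 and type I on chromosome 17, and close relatives can share reads. In GRCh38 with GENCODE 29, KRT80 lies at 52168996 to 52192000, KRT7 at 52232520 to 52252186, KRT8 at 52897187 to 52949954 and KRT18, the 1 type I gene outside its cluster, at 52948871 to 52952901 on chromosome 12. KRT10 lies at 40818117 to 40822595, KRT20 at 40875941 to 40885227, KRT19 at 41523617 to 41528308 and KRT17 at 41619441 to 41624842 on chromosome 17. KRT7 and KRT18 are on the plus strand and the other 6 on the minus strand. All 8 are protein-coding genes, and the values are of whole genes summed over exons.

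The end of the central rod is a conserved stretch of the type I chains, and it is shown because KRT17 has the widest range of levels of the 6 expressed keratins and has 2 close relatives beside it. The stretch was placed on the longest run that KRT17 and KRT16 share, so the low number of differences from KRT16 follows from that choice. KRT18 is not shown. Each line is coding sequence from GENCODE 29 transcripts, 5′ to 3′, and capitals mark bases that differ from KRT17.
KRT17: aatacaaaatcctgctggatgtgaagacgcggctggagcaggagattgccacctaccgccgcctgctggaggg
KRT16: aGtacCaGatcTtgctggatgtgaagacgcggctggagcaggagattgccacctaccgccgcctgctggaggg
KRT14: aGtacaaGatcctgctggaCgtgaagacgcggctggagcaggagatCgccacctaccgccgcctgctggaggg
KRT19: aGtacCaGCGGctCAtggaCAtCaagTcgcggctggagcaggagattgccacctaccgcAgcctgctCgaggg
KRT20: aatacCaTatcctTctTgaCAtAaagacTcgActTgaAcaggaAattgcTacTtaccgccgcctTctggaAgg
KRT10: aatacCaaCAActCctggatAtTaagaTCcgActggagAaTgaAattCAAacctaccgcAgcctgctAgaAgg
Within these 73 bases KRT16 and KRT14, the type I chains of activated and of basal epidermis, each differed from KRT17 at 4 positions, KRT19 at 14, KRT20 at 16 and KRT10 at 19. The longest coding run that KRT17 and KRT16 share without a difference was 61 bases. Over the whole coding sequence KRT17 was identical to KRT16 at 79.5% of aligned bases and to KRT14 at 85.4%. The 2 relatives gave few counts in these libraries: KRT16 had 52 to 138 and KRT14 0 to 7, against 992 to 20830 for KRT17. Of the 75-base words of the KRT17 transcript, 2.33% also occurred in another gene, mostly the pseudogene KRT17P3, and the 8 KRT17 pseudogenes together had at most 0.605% of the KRT17 count.

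No 75-base word of KRT7 or KRT80 occurred in another gene. KRT8 is less easily counted: 10.0% of its 75-base words occurred in other genes, and its 50 pseudogenes together had 1.21 to 5.10% of its count. For KRT18 the share of such words was 4.22% and its 67 pseudogenes had 0.523 to 1.94% of its count. KRT8 and KRT18 also overlap head to head by 525 exonic bases on opposite strands, 16.3% of the KRT18 exon bases. The kit does not mark strand and no strand setting is stated, so reads from that stretch, and from the 282 exonic bases that KRT7 shares with KRT7-AS, cannot be told apart. KRT7-AS had 27 to 192 counts against 1706 to 11428 for KRT7.

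Of the 8 keratins, 6 were expressed in both lines and 2 were at or near 0. KRT8, the type II chain of every simple epithelium, had 82.8 FPKM in the HGC-27 control and 53.7 and 61.4 in its libraries labelled NINJ1. In AGS it had 64.2 in the control, then 49.8 and 48.6 in the libraries labelled NINJ1. In each line the control was the highest library, and the 6 values spanned less than a doubling. KRT18, its partner, had 111 FPKM in the HGC-27 control and 64.6 and 79.4 in the libraries labelled NINJ1, then 72.0 in the AGS control and 64.6 and 65.1. It followed KRT8 across the 6 libraries. The KRT18 to KRT8 ratio of FPKM stayed between 1.12 and 1.34.

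KRT7, the ductal type II chain, had 59.3 FPKM in the HGC-27 control and 187 and 186 in the HGC-27 libraries labelled NINJ1, against 42.6 in the AGS control, then 33.0 and 38.4 in the AGS libraries labelled NINJ1. Every HGC-27 library lay above every AGS library, and the HGC-27 control lay nearer to AGS than to its own line. KRT80 had 22.2 FPKM in the HGC-27 control and 73.1 and 78.2 in the HGC-27 libraries labelled NINJ1, against 29.0 in the AGS control and 29.6 and 31.9. For this type II chain the HGC-27 control was the lowest of the 6 libraries and the other 2 HGC-27 libraries the highest.

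KRT17, the type I chain of wounded epithelium, had 208 FPKM in the HGC-27 control and 352 and 442 in the HGC-27 libraries labelled NINJ1, against 53.8 in the AGS control and 25.1 and 24.1. It spread widest of the 6 expressed keratins, the HGC-27 libraries lay far above the AGS libraries without overlap, and in HGC-27 replicate 2 labelled NINJ1 only 32 genes had a higher FPKM. In AGS replicate 2 labelled NINJ1, 1875 genes did. KRT10, the epidermal chain, had 7.52 FPKM in the HGC-27 control and 12.7 and 18.6 in the libraries labelled NINJ1, against 11.1 in the AGS control and 15.0 and 11.8. Its lines overlapped.

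KRT20 and KRT19, the markers of intestinal and of ductal epithelium, were at the limit of detection. KRT20 had 0 counts in the HGC-27 control and 2 and 0 in the libraries labelled NINJ1, then 5 in the AGS control and 11 and 1. KRT19 had 1 count in the HGC-27 control, 1 in AGS replicate 1 labelled NINJ1, and 0 in the other 4 libraries. A count of 0 allows up to 3 counts, which for KRT19 is 0.0854 to 0.0967 FPKM in those 4 libraries and covers counting error only. KRT19 did not pass the filter on low counts, so 7 of the 8 keratins were tested. KRT20 passed only through its AGS libraries, and no fold is given for it. It is among the 7 in each keratin median given below.

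**Figure D1:**
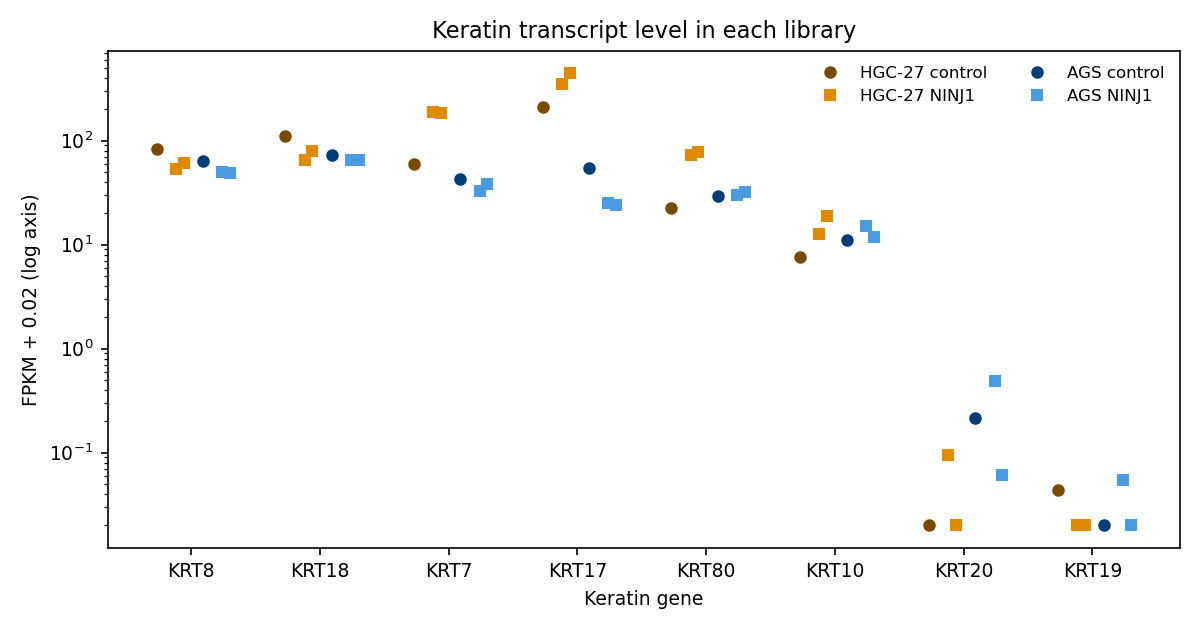
Level of each keratin in each library, as FPKM plus 0.02 on a log axis; circles are controls, squares libraries labelled NINJ1, brown and orange HGC-27, dark and light blue AGS. KRT17 ranges from 24.1 to 442 FPKM with the lines apart, KRT8 from 48.6 to 82.8, and KRT20 and KRT19 lie under 0.5 in every library.

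The order of levels differed between the lines. In HGC-27 libraries labelled NINJ1 the order by FPKM was KRT17, KRT7, then KRT18 and KRT80, then KRT8 and KRT10; KRT18 and KRT80 changed places between the 2 libraries. In AGS libraries labelled NINJ1 it was KRT18, KRT8, KRT7, then KRT80, KRT17 and KRT10. FPKM divides by 1 summed exon length per gene, 6881 bases for KRT8, although its longest transcript has 2862, and the order of close genes depends on that. With counts divided by the longest transcript instead, KRT8 stood above KRT18 in all 6 libraries, with a KRT18 to KRT8 ratio of 0.719 to 0.860.

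The members made up nearly all keratin transcripts, 96.8 to 99.2% of the FPKM summed over all keratin genes, and 0.0926 to 0.320% of all counts. Their summed FPKM was 491 in the HGC-27 control and 742 and 866 in the libraries labelled NINJ1, against 273 in the AGS control and 218 and 220. The HGC-27 libraries thus carried more keratin RNA in every case. KRT17 held 42.4% of that sum in the HGC-27 control and 47.4 and 51.1% in the libraries labelled NINJ1, but 19.7% in the AGS control, then 11.5 and 10.9% in the AGS libraries labelled NINJ1. KRT8 and KRT18 filled the reverse share, with KRT18 at 8.70 to 22.6% in HGC-27 and 26.4 to 29.7% in AGS. The ratio of KRT17 to KRT18 was 1.88 in the HGC-27 control, 5.44 and 5.57 in the libraries labelled NINJ1, 0.748 in the AGS control, and 0.389 and 0.370. These shares and ratios within a library are descriptions and were not tested.

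Type I transcripts exceeded type II in HGC-27, with ratios of summed FPKM of 1.99 in the control and 1.37 and 1.66 in the libraries labelled NINJ1. In AGS the sums were close, 1.01 in the control and 0.937 and 0.849. Per longest transcript the HGC-27 ratios were 1.48, 1.10 and 1.34 and the AGS ratios 0.749, 0.688 and 0.633, so the order of the lines held on both length scales, while the excess of type II in AGS was larger on the second. VIM, the mesenchymal intermediate filament that both lines also make, had 45.4 to 80.8 FPKM in HGC-27 and 75.5 to 94.3 in AGS.

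**Figure D2:**
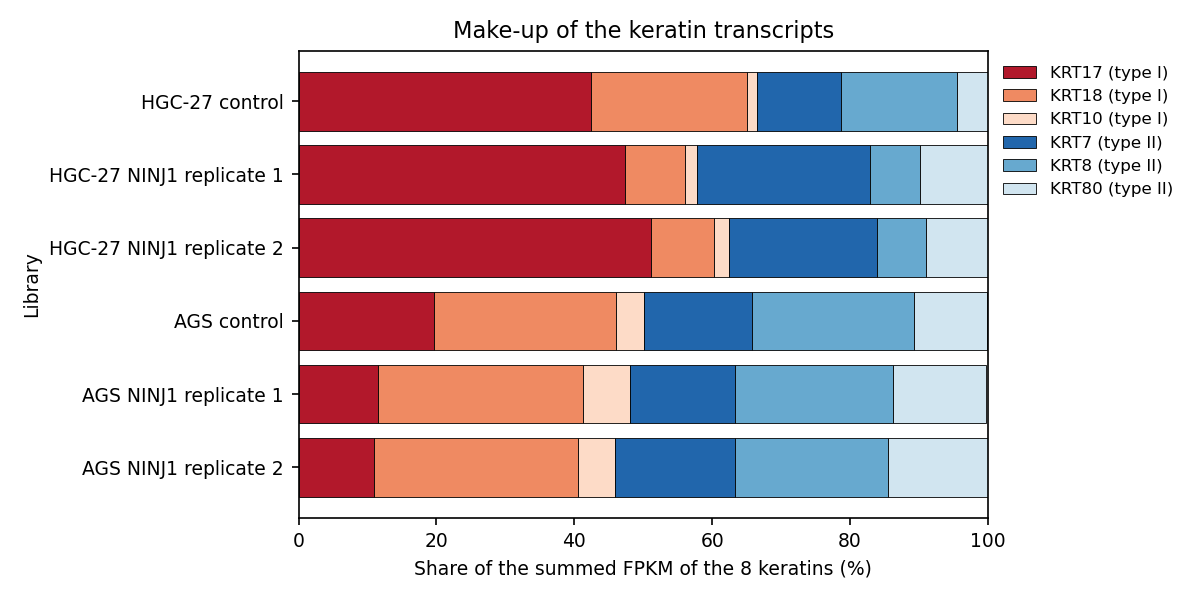
Share of the summed FPKM of the 8 keratins taken by each gene (horizontal axis, percent) in each library; reds are type I and blues type II chains, and KRT19 and KRT20 are too low to see. KRT17 takes 42.4 to 51.1% in HGC-27 and 10.9 to 19.7% in AGS.

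AGS differed from HGC-27 in KRT17, KRT7 and KRT80, all lower in AGS, with the 2 libraries labelled NINJ1 of each line compared. Of 7 keratins tested, 3 were lower and 0 higher by the edgeR quasi-likelihood test (adjusted p under 0.05), where 20% of all genes were lower and 20.2% higher; the median log2 difference was -0.23 over the keratins and -0.0057 over all genes. KRT17 was 16.2-fold lower (log2 -4.02, SE 0.13, adjusted p = 3.91e-23), KRT7 5.22-fold lower (log2 -2.38, SE 0.11, adjusted p = 1.79e-18), and KRT80 2.46-fold lower (log2 -1.30, SE 0.11, adjusted p = 5.39e-12). All 3 have HGC-27 values above AGS values without overlap among these 4 libraries, which restates the same calls. The share of all genes without such overlap was not counted. At unadjusted p under 0.05 edgeR and DESeq2 alike had 4 lower and 0 higher.

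KRT8 and KRT18 lay closer between the lines. KRT8 was not called, at a log2 difference of -0.23 (95% interval -0.44 to -0.017, adjusted p = 0.0802; 0.0391 with replicate block and GC correction together), and KRT18 was not called, at -0.16 (-0.38 to 0.068, adjusted p = 0.275). KRT10 was not called either, at -0.23 (-0.56 to 0.097, adjusted p = 0.266). Without HGC-27 replicate 1 labelled NINJ1 6 keratins were called lower, with KRT8 at -0.33, KRT18 at -0.30 and KRT10 at -0.49, where 23% of all genes were lower and 22.2% higher; KRT20, at 11 counts or fewer, was called higher. With the lines of the titles 0 of 7 were called (0 also at unadjusted p under 0.05), since each group then holds 1 high and 1 low library. In the 4 undisputed libraries only KRT17 was called by edgeR, with KRT7 at -1.67 (adjusted p = 0.214) and KRT80 at -0.64 (adjusted p = 0.773).

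The 2 controls can be compared 1 against 1, with the spread taken from the other libraries. KRT17 was lower in the AGS control too, at log2 -2.30 (SE 0.16, adjusted p = 5.85e-14), and so were KRT18 at -0.97, KRT7 at -0.82 and KRT8 at -0.71, while KRT80 was at 0.041 (adjusted p = 0.824). Calls were common there, with 37% of all genes higher and 28.9% lower. After a correction for GC content (an offset per gene from a smooth fit of each library's departure against GC), KRT17 stood at -3.92, KRT7 at -3.44, KRT18 at -2.14, KRT8 at -1.97 and KRT80 at -1.33, all called, as were 25.6% of all genes higher and 29.1% lower. The KRT17 and KRT80 values of the controls then lay near those of the libraries labelled NINJ1, and the KRT7, KRT8 and KRT18 values did not. KRT7 was at -2.38 in the libraries labelled NINJ1 and at -2.24 there with GC correction, so the corrected controls lay below both. In the fit of all 6 libraries with treatment as a term, KRT17 was at -3.46 (adjusted p = 0.0110), KRT7 at -1.87 (adjusted p = 0.0415) and KRT80 no longer called at -0.86 (adjusted p = 0.171). With GC correction in that fit all 3 were called, KRT17 at -3.93, KRT7 at -2.63 and KRT80 at -1.27 (adjusted p = 0.000782).

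**Figure D3:**
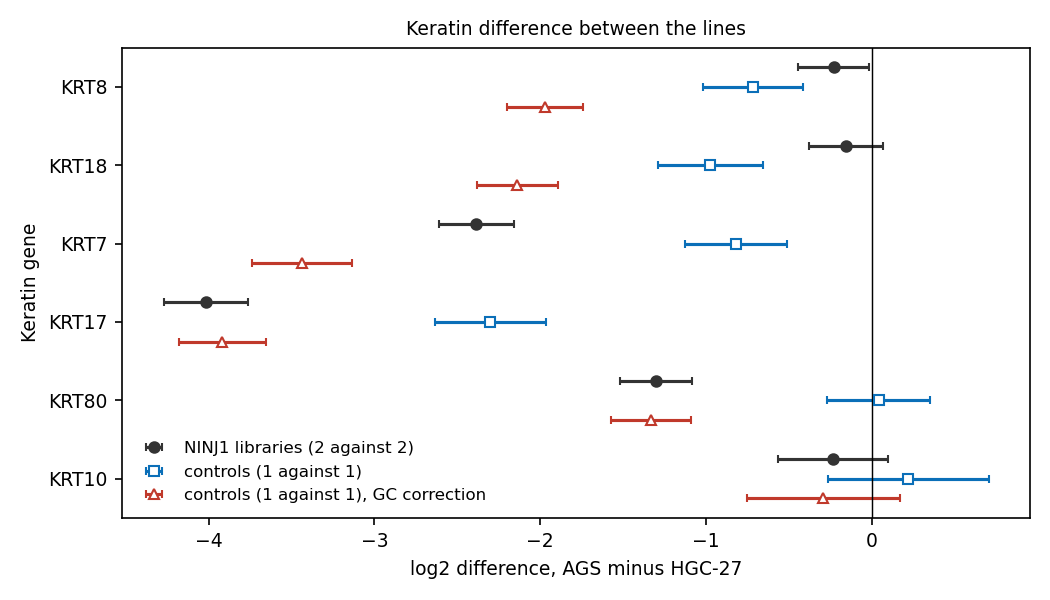
Difference between the lines for 6 keratins, as log2 AGS minus HGC-27 with 95% intervals from edgeR; filled circles compare the libraries labelled NINJ1, open squares the controls, open triangles the controls after GC correction. KRT17 lies at -4.02, -2.30 and -3.92, KRT80 at -1.30, 0.041 and -1.33, and KRT7 at -2.38, -0.82 and -3.44.

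In AGS, 2 keratins were lower in the libraries labelled NINJ1 than in the control, KRT17 and KRT8, and none was higher. NINJ1 is itself lower in these libraries. Over all genes 9.3% were lower and 5.73% higher, and the median log2 change was -0.20 over the 7 tested keratins and 0.0036 over all genes. KRT17 went from 166 CPM (counts scaled by TMM to a common library size) in the control to 74.1 and 72.0, a 2.27-fold fall (log2 -1.18, SE 0.14, adjusted p = 8.02e-08). Both libraries lay far below the control and close to each other. KRT8 fell by 0.44 on the log2 scale (SE 0.13, adjusted p = 0.0164), from 435 CPM to 323 and 320. At unadjusted p under 0.05 edgeR had 3 lower and 0 higher, and DESeq2 the same.

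The other 5 did not pass. KRT7 was at -0.31 (95% interval -0.57 to -0.043, adjusted p = 0.109) with both libraries below the control, and KRT18 at -0.20 (-0.48 to 0.068, adjusted p = 0.329). KRT10 was at 0.21 (-0.20 to 0.63) and KRT80 at 0.030 (-0.24 to 0.30). With GC correction the same 2 of 7 were called, KRT17 at -1.05 and KRT8 at -0.34. KRT8 lost its call without AGS replicate 1 (adjusted p = 0.167) or replicate 2 (adjusted p = 0.223) labelled NINJ1 and with limma on FPKM (adjusted p = 0.106 to 0.177), and KRT7 gained one without HGC-27 replicate 1 (adjusted p = 0.00497) or replicate 2 (adjusted p = 0.00464) labelled NINJ1, and among genes with a mean FPKM of 5 or more (-0.37, adjusted p = 0.0472). With the lines of the titles 0 of 7 were called, with 0 at unadjusted p under 0.05. So it was in an additive fit of the 4 undisputed libraries, which gives a single change shared by both lines.

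In HGC-27, 4 keratins were higher and 2 lower in the libraries labelled NINJ1 than in the control, but the direction of 2 of them turned with the GC correction. Over all genes 34% were higher and 29.1% lower, so that calls were common, and the median log2 change was 0.67 over the 7 keratins and 0.12 over all genes. KRT20, near 0 counts in this line, is on the high side of the keratin median and raises it. KRT80 was 2.59-fold higher (log2 1.37, SE 0.14, adjusted p = 1.68e-10), KRT7 2.39-fold higher (log2 1.25, SE 0.14, adjusted p = 9.75e-10), KRT10 was at 0.67 (SE 0.21, adjusted p = 0.00577) and KRT17 at 0.53 (SE 0.14, adjusted p = 0.00102). KRT18 fell by 1.02 (SE 0.13, adjusted p = 2.37e-08) and KRT8 by 0.92 (SE 0.12, adjusted p = 7.95e-08) on the log2 scale. KRT8 and KRT18 thus moved against the other 4 on this scale.

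The HGC-27 control, the single one of its line, is the library in which GC-rich genes were low. KRT7 has 62.9% GC in its longest transcript, KRT17 58.1%, KRT80 56.8%, KRT8 56.2%, KRT18 55.7% and KRT10 52.0%. Genes of the GC content of KRT7 lay at -2.03 on the log2 scale in that control, those of KRT17 at -1.26, those of KRT80 at -1.07, those of KRT8 at -0.98, those of KRT18 at -0.91 and those of KRT10 at -0.40. With these offsets in the fit, 0 keratins were higher and 4 lower, where 21.9% of all genes were higher and 27% lower: KRT18 at -2.16, KRT8 at -2.14, KRT7 at -1.24 (adjusted p = 3.59e-09) and KRT17 at -1.04 (adjusted p = 4.29e-09). No keratin was higher at unadjusted p under 0.05 in that fit. KRT10 at 0.14 (adjusted p = 0.558) and KRT80 at 0.041 (adjusted p = 0.754) were no longer called. KRT8 and KRT18 alone were lower in both fits and called in each.

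KRT10 also lost its call without HGC-27 replicate 2 labelled NINJ1 (adjusted p = 0.0864) and with DESeq2 (adjusted p = 0.0750). With the lines of the titles only KRT18 was called. In the additive fit of 4 libraries, with its single change shared by both lines, 0 of 7 were called (0 at unadjusted p under 0.05).

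**Figure D4:**
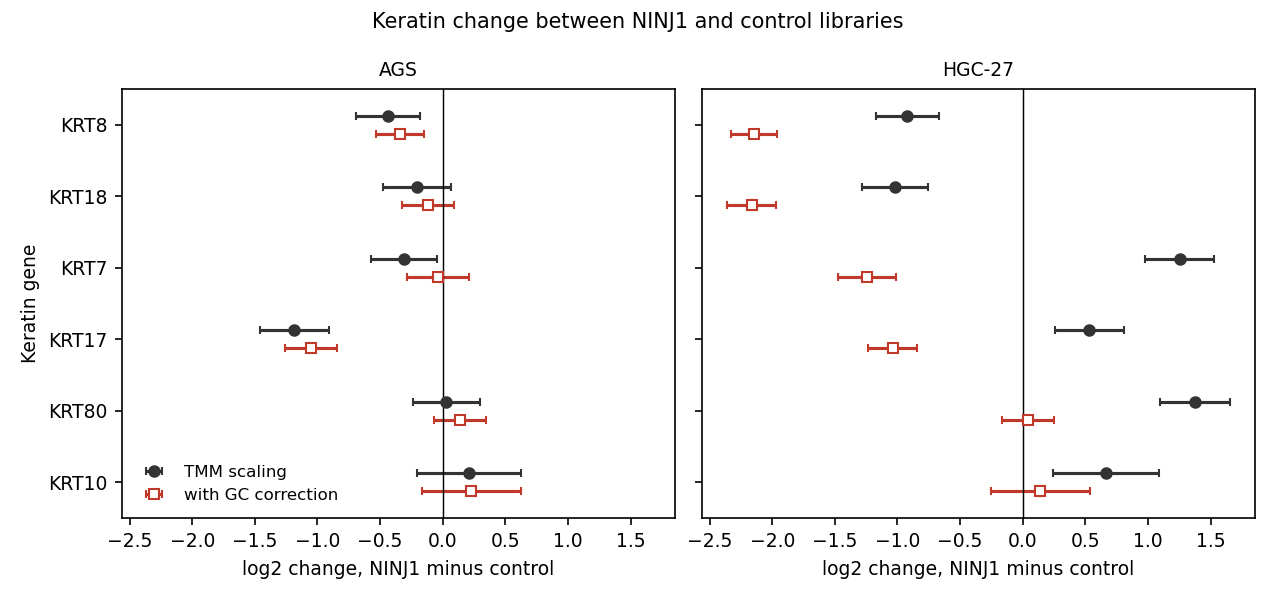
Log2 change of 6 keratins between libraries labelled NINJ1 and the control in AGS (left) and HGC-27 (right), with 95% intervals from edgeR; filled circles are TMM scaling and open squares the fit with GC correction. In AGS the fits lie close, with KRT17 at -1.18 and -1.05; in HGC-27 KRT7 moves from 1.25 to -1.24 and KRT17 from 0.53 to -1.04.

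The difference between the lines in the change was tested as an interaction. Of the 7 keratins, 3 had a lower change in AGS than in HGC-27 and 2 a higher one, against 30.2% and 23.9% of all genes, and the median was -1.34 over the keratins and -0.15 over all genes. KRT20, near 0 counts in most libraries, is on the low side of the keratin median and lowers it. KRT17 differed by -1.72 (SE 0.19, adjusted p = 4.82e-09), KRT7 by -1.56 (SE 0.19, adjusted p = 1.24e-08) and KRT80 by -1.34 (SE 0.19, adjusted p = 2.25e-07). KRT18 differed by 0.82 (SE 0.19, adjusted p = 0.000451) and KRT8 by 0.48 (SE 0.18, adjusted p = 0.0232). With GC correction 3 were higher and 0 lower (0 lower also at unadjusted p under 0.05), against 19.7% and 15.3% of all genes: KRT18 at 2.04, KRT8 at 1.80 and KRT7 at 1.20, which turned. KRT17 then differed by -0.017 (95% interval -0.31 to 0.27) and KRT80 by 0.095 (-0.20 to 0.39). KRT8 lost its call without AGS replicate 1 (adjusted p = 0.116) or replicate 2 (adjusted p = 0.108) labelled NINJ1, while KRT10, at -0.45, gained one without HGC-27 replicate 1 labelled NINJ1 (adjusted p = 0.00505). Among genes with a mean FPKM of 5 or more KRT8 was not called by edgeR (adjusted p = 0.0753), nor with limma on FPKM (adjusted p = 0.217 to 0.506). KRT18 was not called with limma on log2(FPKM + 1) or + 0.1 (adjusted p = 0.0917 in each), but was with equal sums (adjusted p = 0.0415). With the lines of the titles 0 of 7 were called by edgeR, with 1 at unadjusted p under 0.05. The 2 within-line comparisons and this one share their libraries.

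KRT8 and KRT18 had patterns close to each other's. The root mean square difference of their log2 CPM, each centred on its mean over the 6 libraries, was 0.0926, which placed KRT18 as number 9 of 17616 genes by nearness to KRT8, and KRT8 as number 15 for KRT18. Nearest to KRT8 were CALR, an endoplasmic reticulum chaperone (0.0586), FAM162A (0.0655) and BNIP3L, a mitophagy receptor (0.0787). Nearest to KRT18 were RPL14 (0.0506) and RPS18 (0.0712), ribosomal proteins, and CD63, a tetraspanin of late endosomes (0.0741). The other tested keratins were far off: from KRT8 the distance was 0.60 for KRT10, 0.82 for KRT80, 1.04 for KRT7 and 1.62 for KRT17. These distances are over 6 libraries, include the HGC-27 control, and carry no test. KRT19 was not tested and was not ranked.

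Few of the other keratins were measured. Of 24 other type I keratins 5 were tested and of 23 other type II keratins 2. Between the lines 20.2% of all genes were higher and 20% lower. The shares were 5.73% and 9.3% in AGS, and 23.9% and 30.2% in the interaction. KRT16 was lower in the AGS than in the HGC-27 libraries labelled NINJ1 (log2 -0.88, SE 0.26, adjusted p = 0.00614), as KRT17 was, and so was KRT34, a hair keratin (-1.01, adjusted p = 0.0142). KRT9, a chain of palm and sole epidermis, was the other of the 3 called, on 6 and 14 counts in HGC-27 and 0 in both AGS libraries. KRT86, a type II hair keratin, fell by 1.72 in AGS on the log2 scale (adjusted p = 0.000504), from 113 counts to 34 and 32. In HGC-27 it was at 1.63 (adjusted p = 0.00275) and at -0.57 with GC correction (adjusted p = 0.336). KRT81 (24 counts, then 6 and 2, adjusted p = 0.0411, and 0.0611 with GC correction) and KRT9 were the others of these lists called in AGS. In HGC-27, where 34% of all genes were higher and 29.1% lower, 1 of the 5 type I keratins was called, KRT34 at 2.34. With GC correction KRT34 was at 1.47 (edgeR adjusted p = 0.0161). In that fit 1 of the 5 was higher and 1 lower, against 21.9% and 27% of all genes. In the interaction KRT86, KRT81 and KRT9 were lower, and none of the 3 was called with GC correction.

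Of 21 genes for desmosomes and proteins that link keratins to them, 16 were tested. For this list and the next, 20.2% of all genes were higher and 20% lower between the lines. The shares were 5.73% and 9.3% in AGS, 34% and 29.1% in HGC-27, and 23.9% and 30.2% in the interaction. With GC correction they were 8.54% and 10% in AGS, 21.9% and 27% in HGC-27, and 19.7% and 15.3% in the interaction. Between the lines, in libraries labelled NINJ1, 6 were higher and 7 lower in AGS (median log2 -0.0013), with FAM83H, which organises keratin bundles, at -2.22, EPPK1 (epiplakin, a keratin-binding protein) at -1.37 and PPL (periplakin) at -1.18. In AGS 1 was higher and 6 lower than in the control (median -0.31), with DSC2 (desmocollin-2) at -1.04, PKP3 (plakophilin-3) at -0.66 and PLEC (plectin) at 0.57; with GC correction 3 were higher and 4 lower and PKP3 was not called (adjusted p = 0.209). In HGC-27 6 were higher and 9 lower (median -0.64), with DST (dystonin) at -1.81, DSP (desmoplakin) at -1.46 and FAM83H at 2.52. With GC correction 1 was higher and 14 lower, FAM83H turning to -0.66. In the interaction 4 were higher and 6 lower, and 10 higher and 1 lower with GC correction.

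Of 16 other intermediate filament genes 12 were tested. VIM was higher in AGS than in HGC-27 libraries labelled NINJ1 (log2 0.90, SE 0.11, adjusted p = 1.56e-08), opposite to KRT17 and KRT7. So was BFSP1, a lens filament chain (2.15), while NEFH, the heavy neurofilament chain, had 201 and 294 counts in HGC-27 and 2 and 0 in AGS; in all 4 were higher and 2 lower. In AGS 1 was higher and 3 lower than in the control: NES (nestin) at -1.40, SYNC (syncoilin) at -1.41 and DES (desmin), which went from 58 counts to 5 and 10, with 3 and 3 after GC correction. In HGC-27 4 were higher and 6 lower, with VIM at -1.16, as KRT8 and KRT18 were lower, LMNA (lamin A/C) at 1.38 and LMNB2 (lamin B2) at 3.11. With GC correction 1 was higher and 9 lower, LMNA turning to -0.85 and LMNB2 at 0.92. The interaction had 3 higher and 4 lower, and 5 and 1 with GC correction.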

How the data were processed

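Messenger RNA was sequenced in 6 libraries from 2 gastric cancer lines. Polyadenylated RNA was taken up in Trizol and made into libraries with a NEBNext Ultra kit, per the labels' protocols. The submitters' processing notes name HISAT2, HTSeq 0.13.5 and GRCh38; the annotation release and strand setting are not given in the sources used here. The deposited tables give, per the file headers, unnormalised read counts and FPKM for each gene. The authors' FPKM was checked to be the count over the library total and over a gene length that is the same in every library. All 51103 identifiers were found in GENCODE 29, which gave positions, exons, coding sequences and GC content of the longest transcript. Promoter sequences were at hand for 3 of the 8 members and were not used. A sequence comparison of the type II members is not reported here.

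Counts were tested with edgeR 4.0.16 in R 4.3.3: filterByExpr with a minimum count of 10 (17617 genes kept, 7 of the 8 keratins), TMM scaling, 1 mean for each of 4 groups, two-sided quasi-likelihood F tests, and Benjamini-Hochberg adjusted p under 0.05 over all tested genes. With 1 control per line, the spread comes from the 2 pairs of libraries labelled NINJ1, and controls are assumed to vary like them. Those pairs differed by more than sampling noise (chi-square per degree of freedom 3.69 in AGS and 10.1 in HGC-27), so neither pair was taken for 1 library deposited again; this does not show that they were separate cultures. Groups follow the lines in the file names, because titles and file names disagree for 2 libraries. The GC correction fitted each gene's departure from its mean over libraries against GC content by lowess with a span of 0.3. Alternatives were DESeq2 1.42.0, its size factors, upper-quartile factors, no filter on low counts, only genes with a mean FPKM of 5 or more, limma 3.58.1 on log2(FPKM + 1) or + 0.1 for genes with FPKM of at least 1 in 2 libraries, FPKM rescaled to equal sums, GC correction, the replicate number as a block, the titles' lines, the 4 undisputed libraries, and each library left out. The controls compared after GC correction, and all 6 libraries with it, were added after the data were seen. The count test was tested on simulated data. Coding sequences were aligned with Biopython 1.88.

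The named genes were the 8 keratins, NINJ1, up to 3 members of each of 9 lists with the smallest p past the threshold, and the 3 genes nearest in pattern to KRT8 and KRT18; KRT16, KRT14, KRT7-AS, VIM levels and marker levels are given as background to these. The members and lists were chosen with earlier results of these data known.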

Additional observations from a re-analysis of the deposited data

Results flagged for a closer look

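The change of 5 keratins between libraries labelled NINJ1 and control differed between AGS and HGC-27 by a test of the difference itself (edgeR interaction, adjusted over 17617 genes), where 23.9% of all genes were called higher and 30.2% lower. The log2 difference, AGS minus HGC-27, was -1.72 for KRT17, -1.56 for KRT7, -1.34 for KRT80, 0.82 for KRT18 and 0.48 for KRT8. The HGC-27 side rests on 1 control library, whose GC-rich genes were low. With GC correction the values were -0.017, 1.20, 0.095, 2.04 and 1.80. With limma on log2(FPKM + 1) KRT18 and KRT8 were not called.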

How the results depend on the processing

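The lower KRT17 of AGS kept its direction and its call in every fit run except that with the titles' lines (0.33, not called). With the titles' lines 0 of the 7 keratins were called in AGS, 1 in HGC-27, 0 in the interaction and 0 between lines, and other values turned: KRT7 1.31 and KRT17 2.07 in AGS; KRT17 -0.55 in HGC-27; KRT7 0.79, KRT10 0.24, KRT17 2.63 and KRT80 0.0026 in the interaction; KRT8 0.12, KRT18 0.15, KRT10 0.46 and KRT80 0.044 between lines. The additive fit of the 4 undisputed libraries gave a single change shared by both lines, with 0 calls, KRT7 at 0.41 and KRT17 at -0.41. Between lines it gave 1 call, with KRT10 at 0.22. That fit allows no change per line and no interaction. GC correction gave KRT7 -1.24 and KRT17 -1.04 in HGC-27, and 3 calls in the interaction with KRT7 1.20, KRT10 0.088 and KRT80 0.095. Limma on FPKM called 1 keratin in AGS with each pseudocount and with equal sums, and 3 in the interaction with each pseudocount. A mean FPKM of at least 5 gave 3 calls and KRT80 -0.028 in AGS. The control against the control gave KRT10 0.22 and KRT80 0.041, and 5 calls with GC correction. Leaving out 1 library gave 1 to 3 calls in AGS (KRT80 from -0.037 to 0.094) and 3 to 7 between lines (KRT18 from -0.30 to 0.0100, KRT10 from -0.49 to 0.077); a line's only control cannot be left out of its own comparison. The cause was not tested.

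Replicate numbers did not pair the libraries: same-numbered libraries of the 2 lines deviated with a correlation of 0.00445 across genes, over 2 pairs. The replicate block left the calls at 2, 6, 5 and 3 in AGS, HGC-27, the interaction and between lines. With block and GC correction together KRT7 was -1.24 and KRT17 -1.04 in HGC-27, and in the interaction 3 were called, with KRT7 1.20, KRT10 0.095 and KRT80 0.094, while between lines 4 were called, KRT8 among them at -0.17 (adjusted p = 0.0391). Limma on FPKM rescaled to equal sums, over 13739 genes, put their median at 0.19 in AGS and 0.39 in HGC-27. It called 1289 genes higher and 460 lower in AGS, and 6132 and 2443 in HGC-27. Limma on log2(FPKM + 1) without rescaling, over as many genes, had medians of 0.063 and 0.32. It called 405 and 545 in AGS, and 5961 and 2470 in HGC-27. The main edgeR fit, over more genes, had medians of 0.0036 and 0.12. It called 1010 and 1638 in AGS, and 5985 and 5118 in HGC-27. The limma runs with and without rescaling thus lay close in HGC-27 but not in AGS. With GC correction the interaction called 3465 genes higher and 2703 lower, against 4219 and 5328. KRT19 and KRT20 are limited by counts of 11 or fewer.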

Other observations

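Among 21 transcription factors of epithelia, 15 were tested. For this list and the next, 20.2% of all genes were higher and 20% lower between the lines. The shares were 5.73% and 9.3% in AGS, 34% and 29.1% in HGC-27, and 23.9% and 30.2% in the interaction. With GC correction they were 8.54% and 10% in AGS, 21.9% and 27% in HGC-27, and 19.7% and 15.3% in the interaction. In the AGS libraries labelled NINJ1, 1 was higher and 4 lower than in the control (median log2 -0.23, against 0.0036 over all genes). HNF4A, a factor of gut and liver epithelium, fell by 2.67 on the log2 scale (SE 0.28, adjusted p = 1.75e-08, edgeR), from 166 counts to 19 and 31. ELF3, an epithelial ETS factor, fell by 1.09 (adjusted p = 7.75e-07), and TFAP2A by 0.58 (adjusted p = 0.00557). All 3 were lower with GC correction as well, where 1 was higher and 6 lower. Between the lines, in libraries labelled NINJ1, 3 were higher and 6 lower in AGS, with KLF5, a factor of proliferating epithelium, at -1.15, ELF3 at -0.89 and HNF4A at -1.90. In HGC-27 3 were higher and 5 lower than in the control, with EHF at -3.56, SP1 at -1.51 and KLF4 at 2.27, and 2 and 7 with GC correction, KLF4 then at 1.26. The interaction had 2 higher and 4 lower, led by KLF4 at -2.39, which was -1.31 with GC correction.

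Of the 10 epithelial markers 8 were tested. In AGS 1 was called, CLDN7, a tight junction claudin, which fell by 1.61 on the log2 scale (SE 0.22, adjusted p = 1.40e-06), from 450 counts to 160 and 123. In HGC-27 3 were higher and 2 lower, with CLDN4 at 3.28, CLDN7 at 2.73 and ESRP2 at 1.43. With GC correction 1 was higher and 4 lower. CLDN4 was then at 1.82, CLDN7 was not called at 0.89 (edgeR adjusted p = 0.0750), and ESRP2 turned to -0.41. Between the lines 3 were higher and 3 lower in AGS, with ST14, a membrane protease, at 1.44 and ESRP2, a splicing factor, at -0.66. SPINT1, a protease inhibitor, was called higher on 1 and 1 counts in HGC-27 and 18 and 13 in AGS. The interaction had 1 higher and 3 lower, and 2 and 2 with GC correction.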
